A study of Homo sapiens with 5 samples.

Results

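In EJ30, a line of human bladder carcinoma, nascent DNA strands were recovered in a 0.5-2 kb and a 2-4 kb size fraction, sequenced separately, and called as peaks against genomic DNA of the same line. The 2 resulting peak lists of short nascent strand sequencing (SNS-seq) are compared here on 24 chromosomes of hg38. They hold 332361 of the 366709 entries in the 4 deposited lists of the series, 147529 in the 0.5-2 kb and 184832 in the 2-4 kb list. A peak was shared if it overlapped a peak of the other list by at least 1 bp, and otherwise belonged to its own list only. This gave 94455 shared and 53074 unshared peaks in the 0.5-2 kb list, and 71655 shared and 113177 unshared peaks in the 2-4 kb list.

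DNA synthesis starts from an RNA primer, and the leading strands that grow from an origin are short while the fork is still close to it. SNS-seq separates such strands by size on a gradient and removes broken DNA with an exonuclease that spares RNA-primed ends, so that their reads pile up where strands began. A strand of the longer fraction has grown further from its start than one of the shorter fraction. Both fractions came from EJ30 cells, for which no treatment is stated. Each is represented by 1 list without scores, read depths or replicates, so there is no replicate error and no test between fractions. The intervals below are exact Clopper-Pearson 95% intervals of shares and cover counting error only, and the spread is given over 23 chromosomes (1 to 22 and X), which are not replicates. The other 2 lists hold origins from ini-seq 2, after 3 hours and after 15 minutes. In that method late G1 nuclei of EJ30 cells arrested with mimosine copy DNA in a cytosolic extract of HeLa cells.

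Typical shared peaks of both lists and peaks of the 2-4 kb list only show what the comparison rests on. Each sequence below has the median length of its group and a GC content next to the group median, lies in no UTR, and is printed from the plus strand of hg38, whole or, in longer peaks, as its central 300 bases, with CpG dinucleotides in capitals.

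Shared 0.5-2 kb peak, intron of POLE, chr12:132669733-132670032: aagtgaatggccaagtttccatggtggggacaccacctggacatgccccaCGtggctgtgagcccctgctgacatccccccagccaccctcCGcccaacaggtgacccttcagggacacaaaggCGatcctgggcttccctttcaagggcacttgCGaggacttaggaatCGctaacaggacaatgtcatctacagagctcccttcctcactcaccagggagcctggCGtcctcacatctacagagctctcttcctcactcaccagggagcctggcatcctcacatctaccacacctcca
Shared 0.5-2 kb peak, intron of LINC02594, chr17:43690633-43690932: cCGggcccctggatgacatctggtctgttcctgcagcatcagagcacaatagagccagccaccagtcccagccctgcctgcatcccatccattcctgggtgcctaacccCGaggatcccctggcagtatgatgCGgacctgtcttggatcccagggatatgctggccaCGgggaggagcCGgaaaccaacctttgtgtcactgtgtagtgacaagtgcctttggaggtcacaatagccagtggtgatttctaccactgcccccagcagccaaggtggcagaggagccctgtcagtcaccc
Shared 2-4 kb peak, intron of KAZN, chr1:14993983-14994282: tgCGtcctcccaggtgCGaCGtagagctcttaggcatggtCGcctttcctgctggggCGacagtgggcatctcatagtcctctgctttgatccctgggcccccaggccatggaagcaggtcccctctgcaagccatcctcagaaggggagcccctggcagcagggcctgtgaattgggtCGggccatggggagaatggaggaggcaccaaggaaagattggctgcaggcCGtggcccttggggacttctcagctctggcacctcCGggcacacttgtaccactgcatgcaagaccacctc
Shared 2-4 kb peak, intron of RPTOR, chr17:80947359-80947658: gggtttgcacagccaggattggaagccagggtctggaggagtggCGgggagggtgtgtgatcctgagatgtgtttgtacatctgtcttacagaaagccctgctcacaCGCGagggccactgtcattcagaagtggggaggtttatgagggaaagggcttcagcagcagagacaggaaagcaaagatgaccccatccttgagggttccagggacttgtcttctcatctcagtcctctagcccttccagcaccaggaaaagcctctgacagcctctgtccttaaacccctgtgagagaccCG
Only 2-4 kb, intron of ACOT7, chr1:6354950-6355227: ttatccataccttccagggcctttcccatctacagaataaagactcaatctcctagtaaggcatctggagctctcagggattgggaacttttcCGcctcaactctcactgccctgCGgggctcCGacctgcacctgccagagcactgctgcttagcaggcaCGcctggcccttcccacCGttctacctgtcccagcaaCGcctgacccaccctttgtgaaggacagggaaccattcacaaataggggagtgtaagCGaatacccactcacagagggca
Only 2-4 kb, intron of EHMT1, chr9:137820063-137820340: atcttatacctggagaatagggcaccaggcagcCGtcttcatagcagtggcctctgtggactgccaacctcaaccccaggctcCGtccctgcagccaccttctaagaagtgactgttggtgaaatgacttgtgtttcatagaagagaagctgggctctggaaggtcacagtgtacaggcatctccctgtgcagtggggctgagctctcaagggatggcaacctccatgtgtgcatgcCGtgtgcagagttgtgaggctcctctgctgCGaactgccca

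The first shared 0.5-2 kb sequence has a GC content of 59.1% over its whole peak, the shared 2-4 kb sequence in KAZN 57.4% and the 2-4 kb only sequences 55.4%. The nearest 0.5-2 kb peak lies 352 bp and 87 bp from the 2-4 kb only examples. A stretch under a peak of the 0.5-2 kb list only is printed with the histone genes.

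The overlap was unequal. Of the 0.5-2 kb peaks, 64.0% (63.8 to 64.3%) overlapped a 2-4 kb peak, whereas 38.8% (38.5 to 39.0%) of the 2-4 kb peaks overlapped a 0.5-2 kb peak. For background, 8.66% of 2936811 windows of 1 kb in hg38 overlapped a 2-4 kb peak and 6.47% a 0.5-2 kb peak. The share of 0.5-2 kb peaks shared ran from 54.0% on chromosome 6 to 79.4% on chromosome 19, and that of 2-4 kb peaks from 31.7% on chromosome X to 43.9% on chromosome 19. With only peaks under 500 bp kept in both lists the shares were 24.1% and 22.8%, but a longer partner no longer counted there. With all partners kept, 44.5% of 0.5-2 kb and 17.3% of 2-4 kb peaks up to 200 bp were shared. Between 300 and 500 bp these shares were 69.2% and 31.6%. Counting a peak of the other list within 1 kb, the shares over all lengths were 70.3% and 61.05%, and within 5 kb 80.7% and 88.1%, so the order turned. With the number of reads behind each list unknown, a difference in depth and a difference between strand sizes cannot be told apart.

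The 2-4 kb list covered more of the genome in longer pieces. Its peaks covered 127 Mb, or 4.31% of the sequenced bases of these chromosomes, against 67.5 Mb (2.30%) for the 0.5-2 kb list. The bases common to both came to 51.5 Mb, which is 76.3% of the bases of the 0.5-2 kb list and 40.6% of those of the 2-4 kb list. Both lists pile up at their shortest permitted lengths. In the 0.5-2 kb list 7928 peaks (5.37%) had the minimum of 173 bp, and in the 2-4 kb list 4936 (2.67%) had the minimum of 164 bp.

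Shared peaks were longer than unshared ones in both fractions. The median length was 340 bp (quartiles 231 and 598 bp) for shared and 229 bp (189 and 296 bp) for unshared 0.5-2 kb peaks. In the 2-4 kb list it was 622 bp (318 and 1556 bp) for shared and 278 bp (202 and 414 bp) for unshared peaks. Only 8 unshared 0.5-2 kb peaks exceeded 1 kb, against 13932 shared ones. In the 2-4 kb list 2997 unshared and 25447 shared peaks did. The share of 0.5-2 kb peaks that were shared was 44.5% up to 200 bp, 69.2% between 300 and 500 bp and 99.9% between 1000 and 2000 bp, and that of 2-4 kb peaks was 17.3%, 31.6% and 80.6%.

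**Figure D1:**
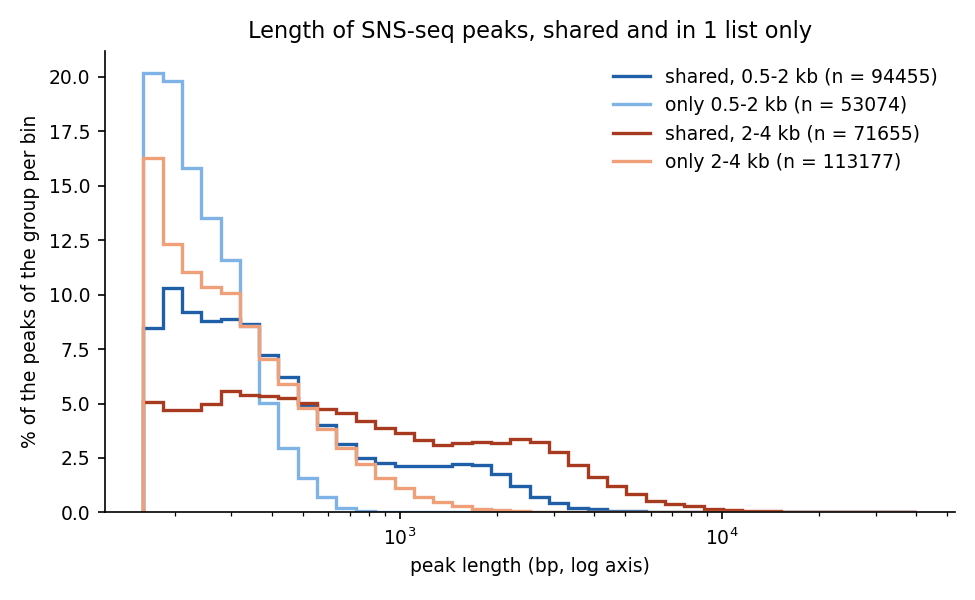
Length of SNS-seq peaks in bp (log axis) as the percentage of the peaks of each group per bin, for shared and unshared peaks of the 0.5-2 kb and the 2-4 kb list. The unshared groups lie mostly under 500 bp, with medians of 229 and 278 bp, and the shared 2-4 kb peaks extend furthest to the right.

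Of the 184832 2-4 kb peaks, 113177 overlapped no 0.5-2 kb peak, 57696 overlapped 1 and 13959 several. Where overlapping peaks of both lists were joined they made 237083 intervals, 70832 of them (29.9%) with both lists. Of these, 56312 held 1 peak of each, 13714 held 1 peak of the 2-4 kb list and several of the 0.5-2 kb list, and 584 the reverse. The 57696 2-4 kb peaks with a single 0.5-2 kb peak had a median length of 474 bp and a mean GC content of 55.2%. The 8975 with 2 had a median length of 2018 bp, the 2854 with 3 one of 3175 bp, and the 1052 with 5 or more one of 6878 bp and a GC content of 62.5%. A 3-hour ini-seq 2 origin overlapped 16.4%, 55.7%, 70.6% and 87.4% of these 4 sets, compared with 3.23% of 2-4 kb peaks that held none, and 1.53% of all 1 kb windows overlapped such an origin. Longer peaks have more room for an overlap, and the part of length in these values was not tested.

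The longest shared peaks lay near chromosome ends in GC-rich sequence. The longest 0.5-2 kb peak covered 13776 bp of PLEC, which codes for the cytoskeletal linker plectin (chr8:143914650-143928425, GC 67.3%), and it was followed by 11166 bp in MIB2 (chr1:1620494-1631659) and 10747 bp over LRRC56, LMNTD2 and RASSF7 (chr11:553510-564256). The longest 2-4 kb peak, 35590 bp with a GC content of 65.6%, spanned the starts of GPT, MFSD3, RECQL4, LRRC14, LRRC24 and C8orf82 (chr8:144495703-144531292). It held 17 peaks of the 0.5-2 kb list and 8 ini-seq 2 origins of the 3-hour list. The next, 32100 bp over MTA1, CRIP2, CRIP1 and TEDC1 (chr14:105462809-105494908), held 19 peaks of the 0.5-2 kb list.

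The 1-to-1 pairs allowed a direct comparison of the same site in both fractions. The 0.5-2 kb peak had a median length of 317 bp and its partner one of 481 bp. The median of the length ratio, 2-4 kb over 0.5-2 kb, was 1.35 (quartiles 0.997 and 2.06, with chromosome medians from 1.24 to 1.49). The 2-4 kb peak was the longer one in 42047 pairs (74.7%, 74.31 to 75.03%), it contained the whole 0.5-2 kb peak in 52.7%, and the reverse held in 13.1%. The gain was alike on the left and the right, with medians of 46 and 48 bp.

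Pairs with a 3-hour ini-seq 2 origin were longer and differed more. In these 9369 pairs the median lengths were 1100 and 1689 bp, the ratio was 1.49 and the 2-4 kb peak was longer in 96.6% (96.2 to 97.0%). In the 46943 pairs without such an origin the medians were 292 and 407 bp, the ratio was 1.31 and the 2-4 kb peak was longer in 70.3% (69.9 to 70.7%). A gene start within 1 kb gave intermediate values, with medians of 613 and 1079 bp and a ratio of 1.38 in 10294 pairs. Longer peaks have more room to overlap an origin, and these values also varied with length over all pairs. Where the peak of the shorter fraction had over 1000 and up to 2000 bp, the 2-4 kb peak was longer in 96.6%, with a ratio of 1.35. From 300 to 500 bp the values were 60.5% and 1.15, and up to 200 bp they were 89.4% and 1.83. The part of length in the contrast between pairs with and without an origin was not tested.

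The centres of paired peaks lay close together. Their median distance was 64 bp (quartiles 25 and 146 bp, 90th percentile 268 bp), 64.0% were within 100 bp, and 321 pairs had the same centre, such as a 288 bp and a 228 bp peak (chr1:1369421-1369708 and chr1:1369451-1369678). The largest distance was 2339 bp, between a 1326 bp and a 6141 bp peak inside XKR4. When each 0.5-2 kb peak was instead set against the 2-4 kb peak that it overlapped most, including those that shared a partner, the median distance was 150 bp. The direction of the shift was even. In 6428 pairs within 1 kb of a protein-coding gene start the 2-4 kb centre lay downstream of the 0.5-2 kb centre in 49.1% and upstream in 50.6%, with a median shift of -2 bp in the direction of transcription. The median centres were 176 bp and 169 bp downstream of the gene start in the 0.5-2 kb and the 2-4 kb list.

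GC content separated the unshared groups. The mean was 46.2% (SD 6.55 over peaks) in peaks of the 0.5-2 kb list only and 54.6% (SD 6.92) in those of the 2-4 kb list only, a difference of -8.46 percentage points that had the same sign on 23 of 23 chromosomes (-9.57 on chromosome 21 to -6.90 on chromosome 19, SD 0.673). Shared peaks had 57.7% in the 0.5-2 kb and 56.1% in the 2-4 kb list, and 1 kb windows of the genome 40.9%. A GC content under 45% was found in 42.9% of the unshared 0.5-2 kb peaks but in 9.57% of the unshared 2-4 kb peaks. The surroundings differed less. At 9 to 10 kb from the peak centre the GC content was 44.2% around unshared 0.5-2 kb and 48.3% around unshared 2-4 kb peaks, so the peaks themselves stood 1.99 and 6.38 points above their flanks.

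Sharing rose with GC content on one side only. Of the 0.5-2 kb peaks with under 35% GC, 9.24% (8.15 to 10.4%) were shared, compared with 40.6% at 45 to 50%, 84.7% at 55 to 60% and 99.8% (99.5 to 99.9%) at 70% or more. The share of 2-4 kb peaks stayed between 31.2% and 47.2% over all 9 GC bins. The windows of the genome showed the same crossing. Among windows of 40 to 45% GC, 4.58% had a 0.5-2 kb peak and 3.83% a 2-4 kb peak, whereas at 55 to 60% the values were 34.5% and 65.2%. The order was thus reversed below 45% GC, where the fraction with fewer peaks reached more windows.

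**Figure D2:**
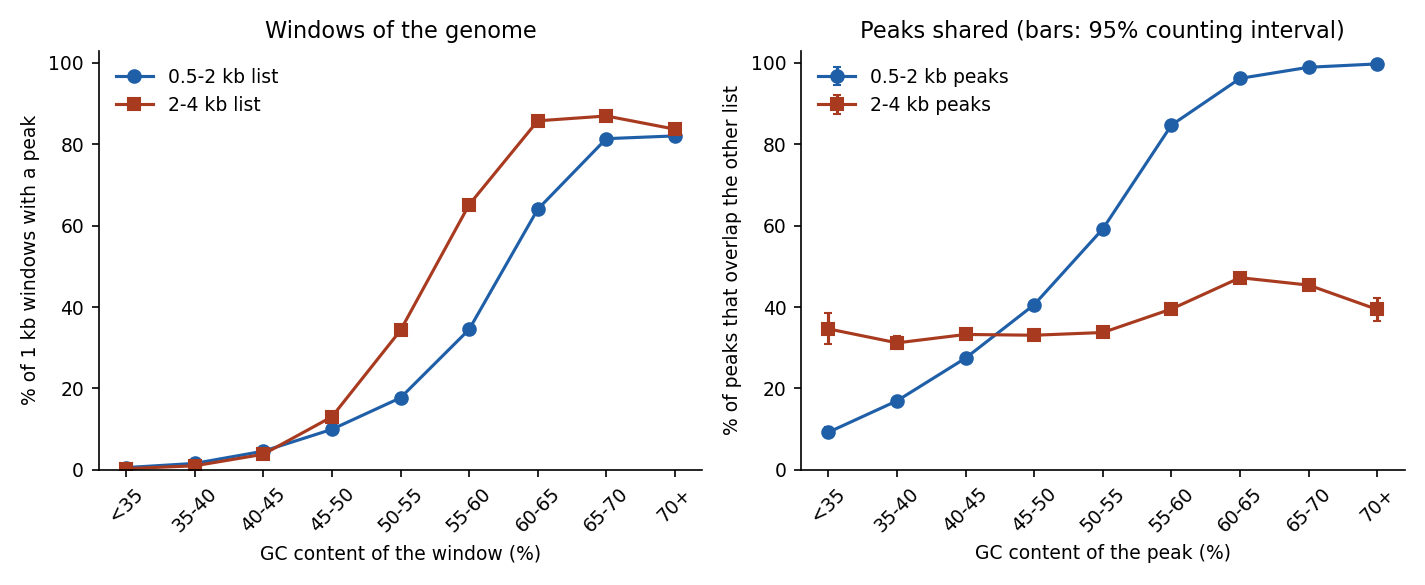
Left, percentage of 1 kb windows of hg38 with a peak of either list, by GC content of the window; right, percentage of peaks that overlap the other list, by GC content of the peak, with exact 95% intervals. The 2-4 kb list lies above the 0.5-2 kb list from 45% GC upwards, and the shared part of the 0.5-2 kb peaks climbs from 9.24% to 99.8% while that of the 2-4 kb peaks stays at or below 47.2%.

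Over all peaks, G-rich motifs followed the same order as GC content. G-quadruplexes (G4) are four-stranded structures that runs of G can form, and they have long been discussed as features of origins. A G4 motif here means 4 runs of at least 3 G, or of 3 C for the other strand, with loops of 1 to 7 bases, in the central 300 bp. It was present in 22.7% of shared 0.5-2 kb, 20.6% of shared 2-4 kb, 13.7% (13.5 to 13.9%) of 2-4 kb only and 3.43% (3.27 to 3.58%) of 0.5-2 kb only peaks, next to 3.09% of all windows. The 0.5-2 kb only group was lower than the 2-4 kb only group on 23 of 23 chromosomes. At 50 to 55% GC the shares were 4.89% and 8.33%, with 5.04% in windows of that GC content. Shared peaks there had 8.45% (0.5-2 kb) and 8.32% (2-4 kb), close to the 2-4 kb only group. At 60% GC or more the 0.5-2 kb only group had 22.3%, the 2-4 kb only group 27.7% and windows 32.4%. Shared peaks had 36.9% (0.5-2 kb) and 35.7% (2-4 kb). A typical 2-4 kb only peak with the motif in capitals lies 764 bp from the nearest 0.5-2 kb peak.

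Only 2-4 kb, with G4 motif, chr19:2623906-2624183: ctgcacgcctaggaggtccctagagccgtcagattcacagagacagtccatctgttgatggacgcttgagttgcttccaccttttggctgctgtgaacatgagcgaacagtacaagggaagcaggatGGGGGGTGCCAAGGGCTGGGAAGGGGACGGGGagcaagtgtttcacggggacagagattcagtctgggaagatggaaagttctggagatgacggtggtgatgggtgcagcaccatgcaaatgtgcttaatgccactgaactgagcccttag

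Strand asymmetry was highest in the 2-4 kb only group. The mean of the absolute GC skew, |G - C|/(G + C) over the central 300 bp, was 0.154 there, compared with 0.111 in the 0.5-2 kb only group, 0.127 and 0.129 in shared peaks of the 0.5-2 kb and 2-4 kb lists, and 0.125 in windows. The difference between the unshared groups had the same sign on 23 of 23 chromosomes. It was also seen at like GC content, with 0.162 and 0.110 at 45 to 50% GC (SD over peaks 0.133 and 0.0869).

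CpG-rich sequence was mostly shared. Peaks with over 50% GC and a CpG observed-to-expected ratio over 0.6, the composition of CpG islands, made up 20.2% of shared and 1.42% of unshared 0.5-2 kb peaks, and 16.4% of shared and 3.81% of unshared 2-4 kb peaks.

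To find what else set the 0.5-2 kb only group apart, all words of 12 letters were counted on both strands in the central 300 bp of the peaks, and the word that differed most between the unshared groups was CCTGTAATCCCA. It was present in 13401 peaks of the 0.5-2 kb list only (25.2%, 24.9 to 25.6%) and in 4843 of the 2-4 kb list only (4.28%, 4.16 to 4.40%). In shared peaks it was found in 5.87% and 4.78%, and in windows of the genome in 6.52%. The word belongs to Alu repeats, the most abundant short interspersed elements of primate genomes, which descend from the 7SL RNA gene and carry an internal promoter for RNA polymerase III. It was chosen after its values were seen. The excess was found on 23 of 23 chromosomes, from 17.8% of 0.5-2 kb only peaks on chromosome 13 to 38.7% on chromosome 19, against 2.70 to 8.14% of 2-4 kb only peaks. At 45 to 50% GC the word was in 29.7% of 0.5-2 kb only, 9.13% of 2-4 kb only and 14.8% of window sequences. No word differed as much in the other direction, where the largest gap was that of CACACACACACA with 1.14% of 2-4 kb only and 0.469% of 0.5-2 kb only peaks. Both lie below the 1.39% of window sequences with this word.

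The GC difference was also present among peaks without the word, which may still hold other parts of Alu or other repeats. Peaks of the 0.5-2 kb only group without the word, 39673 in number, had a mean GC content of 46.2%, and 2-4 kb only peaks without it 54.9%. A G4 motif was present in 4.26% and 14.1% of them.

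The peaks took a fixed side of the repeat. Alu elements are dimers, and the word AGCACTTTGGGA, the third in the order of differences, occurs in the first arm only, so its direction gives the direction of the element. This word too was chosen for its excess in the 0.5-2 kb only peaks. A rise of that group near the word therefore follows from the choice, while the side does not. Around the 516180 copies of the word in hg38, peaks of the 0.5-2 kb only group were most frequent 125 bp before it, where 4.09% of copies were covered. Beyond 1 kb they had a mean of 0.997%. Behind the word they fell to 0.137% at 325 bp. Peaks of the 2-4 kb only group reached 3.42% at 225 bp before the word, against a mean of 2.19% beyond 1 kb. Over all peaks the 0.5-2 kb list rose from 3.23% beyond 1 kb to 7.15% before the word and the 2-4 kb list from 5.49% to 7.11%, and both fell under 1% within the 200 bp behind it. Counted by copies, the lists differed little. A peak within 200 bp was found at 8.18% of copies in the 0.5-2 kb and 7.98% in the 2-4 kb list. For unshared peaks the shares were 4.78% and 4.05%. Reads of 50 nt that align to several copies of a repeat were not used by the authors, and the part of this in the values was not tested.

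**Figure D3:**
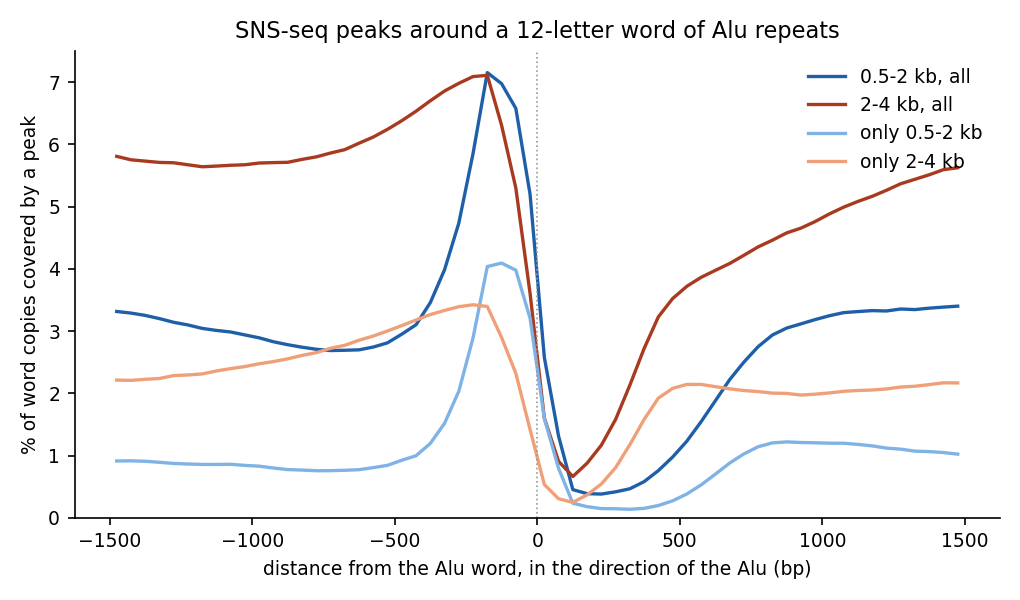
Percentage of 516180 copies of a 12-letter Alu word in hg38 that are covered by a peak (y axis) against the distance in bp from the word in the direction of the Alu element (x axis, 50 bp bins), for both lists and their unshared peaks. The 0.5-2 kb only curve rises before the word to 4.09% and, after 1.595% in the first bin behind it, falls to 0.137% at 325 bp, and both complete lists share the trough over the repeat. The word was chosen for its excess in 0.5-2 kb only peaks, so a rise of that curve near it follows from the choice.

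Gene context differed in the same direction. A gene start of any kind lay within 1 kb of the centre of 22.2% of shared 0.5-2 kb and 21.5% of shared 2-4 kb peaks, of 8.49% (8.33 to 8.65%) of 2-4 kb only and 5.34% (5.15 to 5.54%) of 0.5-2 kb only peaks, and of 3.81% of 1 kb windows. For protein-coding starts alone the unshared groups had 3.71% (2-4 kb) and 0.9496% (0.5-2 kb), and the windows 1.25%. Introns held 59.7% of the 0.5-2 kb only and 51.5% of the 2-4 kb only peaks, next to 43.0% and 43.1% of shared peaks in the 0.5-2 kb and the 2-4 kb list and 53.5% of windows. Coding sequence away from starts held 1.84% and 4.31% of the unshared groups. The kind of gene start differed as well. Of the 2835 nearest starts at 0.5-2 kb only peaks 16.6% were protein-coding and 13.6% belonged to 7SL or 7SK RNA genes and pseudogenes. Of the 9608 at 2-4 kb only peaks the shares were 40.6% and 0.905%. For background, 20033 of all 62663 gene starts are protein-coding, 680 belong to 7SL and 301 to 7SK RNA genes and pseudogenes.

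Starts of 7SL, 7SK, U6 and 5S RNA genes and pseudogenes had a peak more often in the 0.5-2 kb list than in the 2-4 kb list, while Y RNA, also a product of RNA polymerase III, differed little. These families were examined after the longest isolated 0.5-2 kb only peaks had been seen next to 7SK and 7SL copies. A peak within 500 bp of the start was found in the 0.5-2 kb list for 488 of 680 genes and pseudogenes of 7SL RNA, the RNA of the signal recognition particle (71.8%, 68.2 to 75.1%), and in the 2-4 kb list for 265 (39.0%, 35.3 to 42.8%). For 7SK RNA, which holds back the elongation factor P-TEFb, the counts were 202 and 115 of 301 (67.1% and 38.2%). For U6, the spliceosomal RNA, they were 475 and 174 of 1352 (35.1% and 12.9%), and for 5S ribosomal RNA 389 and 310 of 530 (73.4% and 58.5%). For Y RNA they were 96 and 84 of 812, and their intervals of 9.68 to 14.2% and 8.34 to 12.6% overlap. For microRNA genes the shares were 28.4% and 35.8%, and for small nucleolar RNA genes 14.4% and 15.7%. Protein-coding genes showed the opposite order, with 61.6% of 20033 starts in the 0.5-2 kb and 71.7% in the 2-4 kb list, as did long non-coding RNA genes with 27.8% and 35.9% of 18866. Most of the small RNA entries are pseudogenes, and near-identical copies share reads that do not align uniquely.

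Replication-dependent histone genes, which are packed in clusters and expressed in S phase, had more starts in the 0.5-2 kb list only than any other protein-coding list examined. A 0.5-2 kb peak lay within 500 bp of 53 of 69 starts (76.8%, 65.1 to 86.1%) and a 2-4 kb peak of 33 (47.8%, 35.6 to 60.2%). Of these, 32 had both, 21 only a 0.5-2 kb peak, 1 only a 2-4 kb peak (H2BC3) and 15 neither. Among all protein-coding genes 228 (1.14%) had only a 0.5-2 kb peak and 2243 (11.2%) only a 2-4 kb peak, so histone genes made up 9.21% of the first set and 0.0446% of the second. The 21 genes drew on 18 peaks of 211 to 741 bp, since divergent pairs share a peak, and 20 of them lie on chromosome 6. By protein, 7 of 13 H3, 6 of 18 H2B, 4 of 17 H2A and 4 of 15 H4 genes and none of 6 H1 genes were of this kind. A 2-4 kb peak lay within 5 kb of 11 of the 21 starts. The GC content within 500 bp of the start was 50.1% in these histone genes and 52.5% in those with both peaks, compared with 63.9% in all 12114 protein-coding genes with both.

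At H1-1, which codes for a linker histone, the peaks were of like size, 800 and 783 bp (chr6:26017153-26017952 and chr6:26017201-26017983). H1-4 had 954 and 773 bp, and H1-5 had 608 and 276 bp, so the 2-4 kb peak was the shorter one here. By the rule of most 0.5-2 kb bases at the start with no 2-4 kb peak within 5 kb, which 113 genes met, the leading 5 were all core histone genes, H2AC12 and H2BC12 with a common peak of 741 bp (chr6:27146784-27147524), and H2AC17, H2BC17 and H3C12 with a common peak of 731 bp (chr6:27892905-27893635). The stretch between the starts of the divergent pair H2BC12 and H2AC12 has a GC content of 42.4%, and is shown because this 0.5-2 kb peak covers it whole, with CpG in capitals.

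Between H2BC12 and H2AC12, plus strand of hg38, chr6:27146856-27147105: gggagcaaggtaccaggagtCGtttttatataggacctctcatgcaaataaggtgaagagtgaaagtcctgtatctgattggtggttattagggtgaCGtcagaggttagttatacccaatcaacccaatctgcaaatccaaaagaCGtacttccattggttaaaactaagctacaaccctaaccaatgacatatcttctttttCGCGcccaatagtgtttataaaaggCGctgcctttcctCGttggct

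In the opposite direction 744 protein-coding genes had a 2-4 kb peak at the start and no 0.5-2 kb peak within 5 kb. The 3 longest such peaks were 3121 bp at MALL (chr2:110113970-110117090), 2795 bp at AMER1, a regulator of Wnt signalling (chrX:64203713-64206507) and 2448 bp at EOLA2 (chrX:149937996-149940443).

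The remaining lists, which were chosen with results of these data known, had more starts in the 2-4 kb list, as did all protein-coding genes (71.7% and 61.6%, with 11.2% in the 2-4 kb list only). The count of the 2-4 kb list is given first. Of 38 genes of the replication machinery 32 had a 2-4 kb and 25 a 0.5-2 kb peak (84.2% and 65.8%), and the 7 that had only the 2-4 kb peak included CDC6 and CDC7, which load and fire the replicative helicase. The start of CDT1, another helicase loader, had a 2-4 kb peak of 5947 bp and a 0.5-2 kb peak of 4504 bp, and ORC2 and ORC3 had none. HOX genes, which pattern the body axis, had 38 and 32 of 39 (97.4% and 82.1%), with HOXA6, HOXA7 and HOXA10 among those with a 2-4 kb peak only. Clustered protocadherins, adhesion proteins of neurons, had 31 and 9 of 51 (60.8% and 17.6%), and 24 of them had a 2-4 kb peak only. Zinc finger genes had 388 and 296 of 508 (76.4% and 58.3%), and 99 of them (19.5%) had a 2-4 kb peak only. Ribosomal protein genes, with 61 and 52 of 82 (74.4% and 63.4%), lay near the shares over all protein-coding genes. Among these ribosomal protein genes, RPL3, RPL27 and RPL36A were in the 0.5-2 kb list only. Urothelial genes had 7 and 5 of 12 (58.3% and 41.7%), with GATA3 and ELF3 in the 2-4 kb list only. The lowest shares among these lists were those of keratin-associated proteins, with 23 and 8 of 94, and olfactory receptors, with 18 and 15 of 400. The intervals of both shares overlap for the replication, HOX, ribosomal protein, urothelial and olfactory receptor genes.

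**Figure D4:**
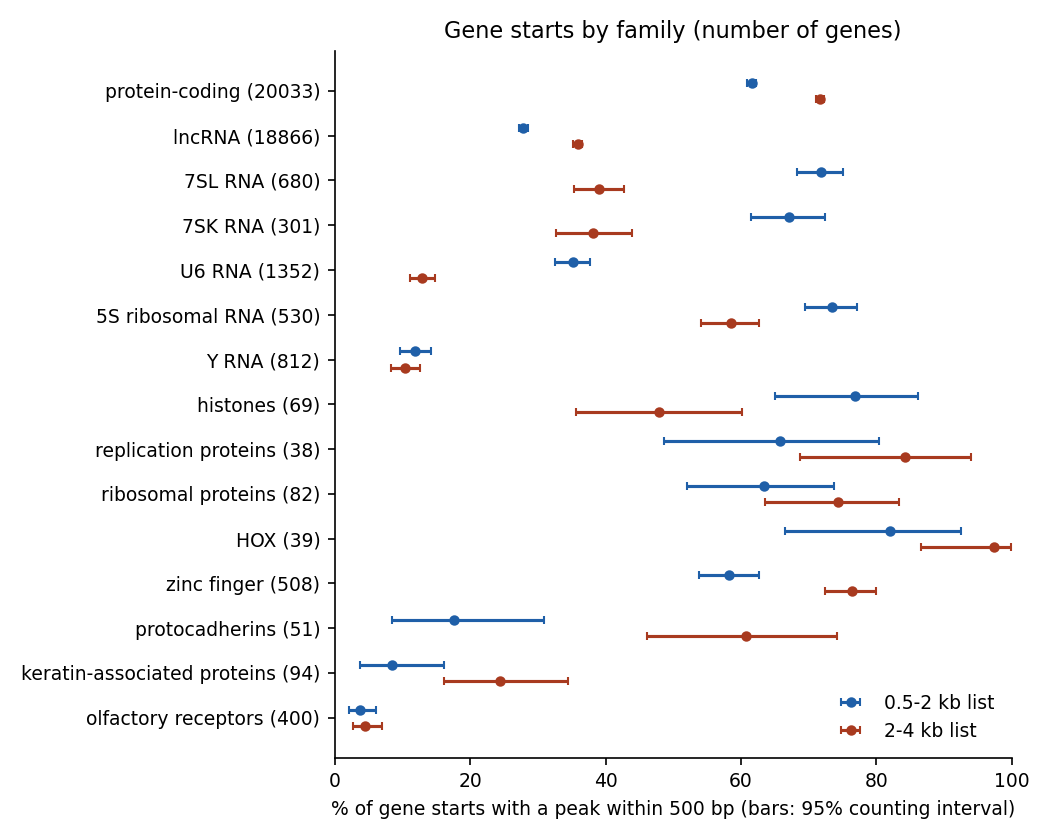
Percentage of gene starts with a peak within 500 bp (x axis) in the 0.5-2 kb and the 2-4 kb list for families of genes (y axis, number of genes in brackets), with exact 95% intervals. The 0.5-2 kb list is ahead for 7SL, 7SK, U6 and 5S RNA and for histones, and the 2-4 kb list for the other protein-coding families. Among the latter, the intervals of both lists overlap for replication proteins, ribosomal proteins, HOX genes and olfactory receptors.

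A list of 14 genes that the study names or draws, not complete and several of them at long-known origins, had a peak of both lists at every start. The Hox cluster of chromosome 7, which the study also draws, is not in this list, and HOXA6, HOXA7 and HOXA10 there had a 2-4 kb peak only. At TOP1, the gene of DNA topoisomerase I, the 0.5-2 kb peak was 1540 bp (chr20:41028380-41029919) and the 2-4 kb peak 2599 bp (chr20:41027359-41029957). At LMNB2, which codes for lamin B2, 2 peaks of 1720 bp in all faced 1 of 3476 bp, at HPRT1, a purine salvage gene, 1366 bp faced 1605 bp, and at DNMT1, the maintenance DNA methyltransferase, 1153 bp faced 2942 bp. The summed length was larger in the 2-4 kb list at 13 of the 14, with medians of 1630 and 2748 bp, and CDK5RAP1 was the exception with 537 and 484 bp.

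Unshared peaks of the 2-4 kb list kept close to the other list. Their nearest 0.5-2 kb peak was a median of 1555 bp away (quartiles 651 and 3769 bp), 80.5% had one within 5 kb and 30.01% (29.7 to 30.3%) had one within 4 kb on both sides. Windows of the genome free of 0.5-2 kb peaks had one within 5 kb in 23.3% and on both sides within 4 kb in 3.70%. Unshared 0.5-2 kb peaks were further from 2-4 kb peaks, with a median of 5957 bp (quartiles 1571 and 19926 bp), 46.2% within 5 kb and 15.0% (14.7 to 15.3%) with one on both sides, next to 18% and 3.33% of windows free of 2-4 kb peaks. More than 50 kb away lay 5680 (10.7%) of the unshared 0.5-2 kb and 2072 (1.83%) of the unshared 2-4 kb peaks. With distance the GC content of 0.5-2 kb only peaks fell from 49.0% within 500 bp of a 2-4 kb peak to 43.7% beyond 50 kb, while that of 2-4 kb only peaks was 54.0% and 55.3%.

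The longest unshared 0.5-2 kb peaks beyond 50 kb were 789 bp over LINC01505 and RN7SKP77, a 7SK pseudogene (chr9:106679330-106680118, GC 42.5%), 783 bp in an intron of ABCA13 (chr7:48632000-48632782, GC 34.5%), and 718 bp over RN7SL255P, a 7SL pseudogene (chr5:104260678-104261395, GC 34.96%). Those of the 2-4 kb list were longer and richer in GC, with 2979 bp in an intron of COL14A1 (chr8:120123482-120126460, GC 56.8%), 2448 bp over the start of EOLA2 (GC 67.2%) and 2255 bp at the start of a non-coding gene (chr4:131974918-131977172, GC 62.8%).

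Around efficient ini-seq 2 origins the 2-4 kb list reached further out than the 0.5-2 kb list. The 3-hour list was divided into 3 classes of near equal size by efficiency. This is the share of reads from copied DNA among reads from copied and uncopied DNA at an origin, with each library scaled to its total. At the centres of the 7968 most efficient origins, within 500 bp, 90.2% of positions were covered by a 0.5-2 kb and 96.5% by a 2-4 kb peak, and 0.692% by a peak of the 2-4 kb list only. A peak that touches the other list cannot be unshared, so the low value at the centres follows from the definition where 0.5-2 kb peaks cover most positions. Coverage by the 2-4 kb only group rose to 13.7% at 2250 bp to the left and 13.9% at 2150 bp to the right, and fell to 3.86% at 9 to 10 kb. The 0.5-2 kb only group covered 0.0126% within 500 bp, 0.447% at 1.5 to 2.5 kb and 1.08% at 9 to 10 kb. The definition limits this group too, and more strongly. At 1.5 to 2.5 kb 2-4 kb peaks covered 41.7% of positions and 0.5-2 kb peaks 12.7%. The shoulders of the unshared groups are therefore not compared. Over all peaks, coverage stayed above 50% of its highest value over 1800 bp in the 0.5-2 kb and 3400 bp in the 2-4 kb list. Around the least efficient class 0.5-2 kb peaks covered 35.3% of positions within 500 bp, which left more room for unshared peaks, and 2-4 kb only peaks covered 13.5% there and 9.52% at 1.5 to 2.5 kb. The classes are therefore not compared in this value.

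Protein-coding gene starts had shoulders as well, under the same limit of the definition. The 2-4 kb only group covered 8.38% of starts at 1850 bp upstream and 7.39% at 2650 bp downstream, with 3.49% at 9 to 10 kb. The 0.5-2 kb list as a whole was most frequent 250 bp downstream of the start, at 49.7%, and the 2-4 kb list 150 bp downstream, at 64.4%. Upstream, at 0.5 to 1 kb, they covered 23.02% and 43.0%, and downstream at the same distance 39.1% and 53.9%.

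**Figure D5:**
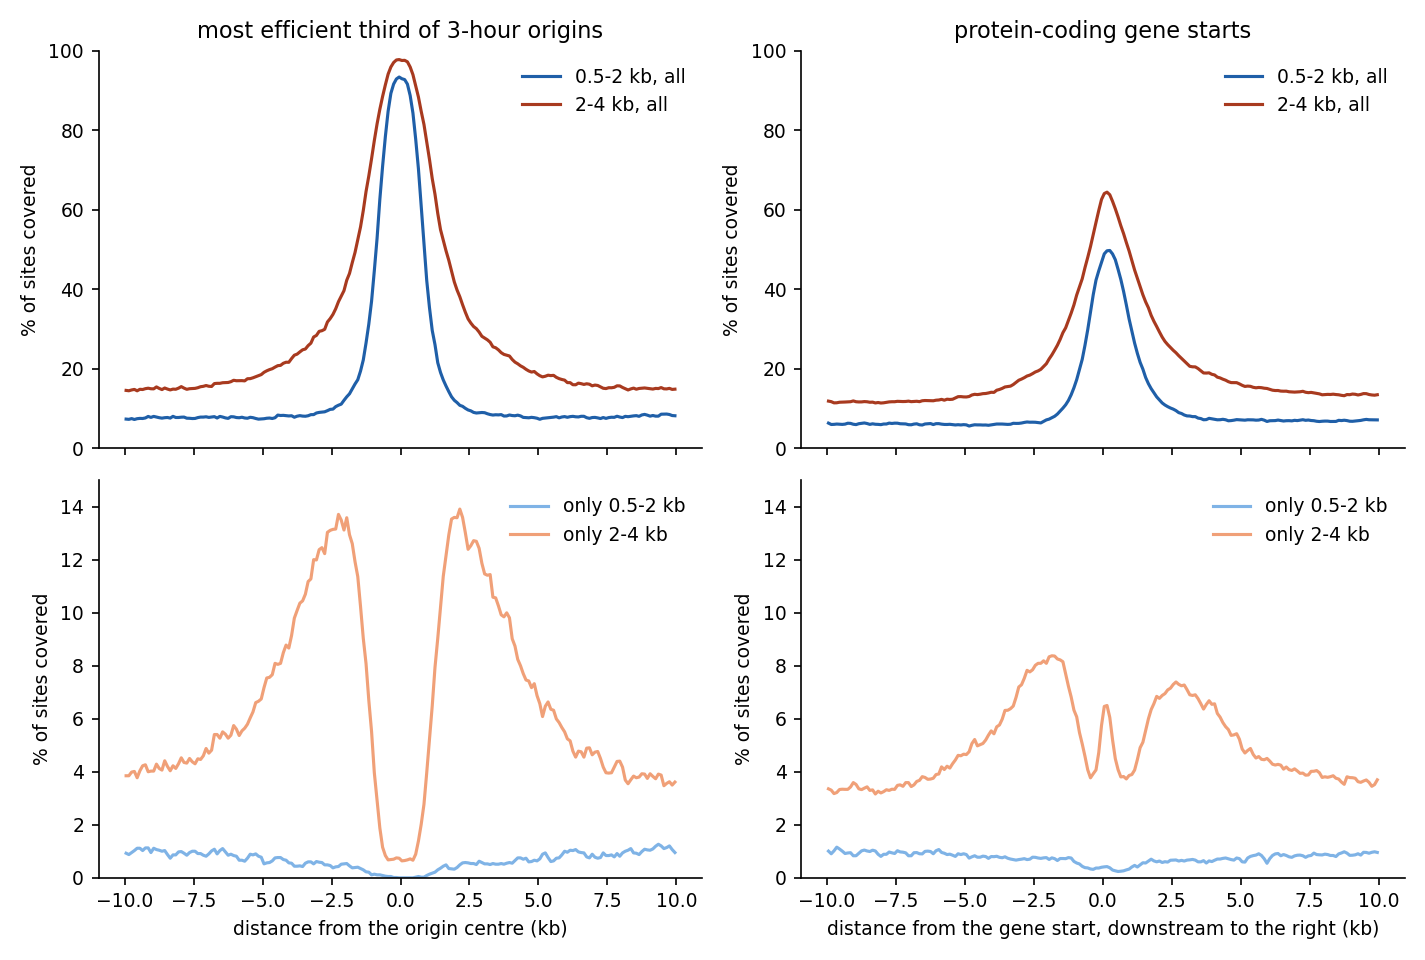
Percentage of sites covered by SNS-seq peaks (y axes) against the distance in kb (x axes, 100 bp bins) from the centres of the most efficient 3-hour ini-seq 2 origins (left) and from protein-coding gene starts (right), for both lists (top) and for their unshared peaks (bottom). The 2-4 kb only curve has shoulders of 13.7% and 13.9% about 2 kb on either side of the origins. It has a trough at their centres, where 0.5-2 kb peaks leave little room for unshared ones. The 0.5-2 kb only curve stays at or below 1.27%, and 2-4 kb peaks limit its room in the same way.

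Overlap with ini-seq 2 origins was almost confined to shared peaks in the 0.5-2 kb list. The definition takes part in this, because a 0.5-2 kb peak that touches a 2-4 kb peak is shared. Of the 3-hour origins 77.7% overlapped both lists and 13.6% only the 2-4 kb list, which leaves little room for unshared 0.5-2 kb peaks. A 3-hour origin overlapped 24.99% of shared 0.5-2 kb and 25.5% of shared 2-4 kb peaks, but 96 of 53074 peaks of the 0.5-2 kb only group (0.181%, 0.147 to 0.221%) and 3660 of 113177 of the 2-4 kb only group (3.23%, 3.13 to 3.34%). The difference between the unshared groups was -3.05 percentage points and had this sign on 23 of 23 chromosomes (-4.70 to -1.64). The 15-minute origins, which overlapped 0.578% of windows, were found in 1 and 121 of the unshared peaks and in 11.9% and 13.9% of the shared ones. Within 5 kb of a 3-hour origin lay 9.48% of the 0.5-2 kb only and 41.7% of the 2-4 kb only peaks. Of the shared peaks it was 58.4% in the 0.5-2 kb and 51.0% in the 2-4 kb list. No share of windows is given for this distance.

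Seen from the origins, 18563 of the 23905 3-hour origins (77.7%, 77.1 to 78.2%) overlapped peaks of both lists, 3260 (13.6%) only of the 2-4 kb list, 79 (0.330%) only of the 0.5-2 kb list and 2003 (8.38%) of neither. In the most efficient class both lists were present at 97.2%, and the 0.5-2 kb list alone at 0 of 7968, which allows a share of up to 0.0377% by a limit of 3 counts, or 0.0463% as the upper end of the exact interval. In the least efficient class 58.8% had both lists, 27.3% (26.3 to 28.3%) only the 2-4 kb list and 63 of 7980 only the 0.5-2 kb list. The 15-minute origins overlapped both lists in 10017 of 10181 cases (98.4%). An origin counts for the 0.5-2 kb list alone only where it has no 2-4 kb peak, and 135 origins of the most efficient class had neither list. The 2-4 kb list covers more bases, and the part of this in the values was not tested.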

How the data were processed

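SNS-seq strands of the 2 size pools from sucrose gradients were sequenced by the authors as single reads of 50 nt, aligned to hg38 with Bowtie2, kept where unique, and called with MACS2 against EJ30 genomic DNA. Versions, read numbers and the pooling of replicates are not given in the sources used here, so depth is unknown. The deposited SNS-seq lists hold positions, which were read as BED (start counted from 0), and no scores. The deposited value at 3 hours is a fraction, the efficiency of an origin, from 2 pooled replicates, and that at 15 minutes a score (Z-score). The 15-minute score was not used.

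Peaks on unplaced contigs and the mitochondrial genome were left out. GC content, G4 motifs and words were read from hg38, and genes from GENCODE 44 (62663 genes). A gene start is the 5′ end of the gene. Peak context was assigned at the centre, in the order gene start within 1 kb, coding, UTR, other exon, intron, outside genes. Words in windows were counted in 1 of 5 windows. Named genes were 14 that the study names or draws, up to 4 per outcome of each list in alphabetical order, the 5 with most bases of 1 list only, and the 3 longest peaks per group. Members and lists were chosen with earlier results of these data known. Overlap, gap and motif functions were tested on simulated data. Tables were computed with pandas 2.3.3 and numpy 2.4.6 under Python 3.11.15, intervals with scipy 1.17.1, and plots drawn with matplotlib 3.10.9. The genomic DNA library was not analysed here, and some named items are not reported here.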

Additional observations from a re-analysis of the deposited data

Results flagged for a closer look

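Peaks outside the 24 chromosomes entered no comparison. The 0.5-2 kb list holds 128 such peaks, 4 of them on the mitochondrial genome and 52 on a single unplaced contig, and the 2-4 kb list 134, of which 2 are on the mitochondrial genome and 28 on the same contig.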

How the results depend on the processing

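Among the alternatives tried, 8 moved a value by less than its counting interval or the spread over chromosomes and 18 moved it further. The differences between the unshared groups kept their sign. The share of 0.5-2 kb peaks shared was 61.8% if 50% of the peak had to be covered, 70.3% with a peak within 1 kb, 80.7% within 5 kb, 58.3% with peaks of each list joined at 500 bp and 24.1% among peaks under 500 bp. For 2-4 kb peaks these shares were 27.1%, 61.05%, 88.1%, 46.7% and 22.8%. Within 5 kb the order of the shares thus turned. The values under 500 bp were close, but there longer peaks were left out of both lists, so a longer partner no longer counted. The length ratio was 1.44 over all joined intervals and 1.50 with lists joined at 500 bp, where the centre distance was 110 bp. It was 150 bp with each 0.5-2 kb peak set against its largest overlap. Where unshared meant no peak of the other list within 5 kb (28529 and 22045 peaks), the GC difference was -10.5 and the difference at gene starts -4.51 percentage points. The difference in ini-seq 2 overlap was -32.2 points for an origin within 5 kb and -0.105 for 15-minute origins. Autosomes alone, the central 200 bp, coding starts and any base of the peak left their values within the spread. The cause of these changes was not tested. No paired analysis was possible because each fraction is 1 list without replicates. Without scores no stricter peak set could be formed, and depth per peak is unknown.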
